A study of Mus musculus with 16 samples.

Results

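The phagocyte NADPH oxidase is the enzyme complex with which white blood cells make superoxide. Its transcripts were examined through 6 genes, Cybb, Cyba, Ncf1, Ncf4, Rac1 and Rac2, of the 19938 genes measured by a probe set with a single gene symbol. Each of the 6 genes was read from 1 probe set: 10603551 for Cybb, 10582303 for Cyba, 10534202 for Ncf1, 10425053 for Ncf4, 10535471 for Rac1 and 10430372 for Rac2. The genes were chosen by name, as parts of this complex, and not by their values, although earlier results of these data were known.

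The cells were type 1 conventional dendritic cells (cDC1), the dendritic cells specialised in presenting antigen taken up from other cells to CD8 T cells. They were sorted from inguinal lymph nodes of C57BL/6 mice on day 6 after a regressor tumour was injected in the back flank, and the nodes had been digested with collagenase B and DNaseI. The mice were either WDFY4 Het, with 1 disrupted copy of the gene for WDFY4, a protein with a known role in cross-presentation by cDC1, or WDFY4 KO. The nodes were either draining, on the side of the tumour, or non-draining. Each combination of genotype and node was a group, which gave 4 groups of 4 arrays. All 4 groups came from tumour-bearing mice, so that no group lacked a tumour and none carried 2 intact Wdfy4 copies. The labels used here do not give the age or sex of the mice, the construction of the disrupted allele or the tumour line. Nor do they state that each array had a mouse of its own, so the p-values rest on a spread between samples that could be technical only.

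Cybb encodes gp91phox (NOX2), the catalytic subunit that carries electrons from NADPH across the membrane to oxygen, and Cyba encodes p22phox, the membrane partner that stabilises it. Ncf1 (p47phox) is the cytosolic organiser that docks on p22phox after phosphorylation, and Ncf4 (p40phox) binds phosphatidylinositol 3-phosphate on the phagosome. The small GTPases Rac1 and Rac2 switch the assembled enzyme on, Rac2 being largely restricted to blood cells and Rac1 being found in nearly all cells. In dendritic cells, oxidase activity at the phagosome consumes protons and slows acidification, which preserves antigen for cross-presentation.

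The start sites of 3 of the 6 genes were matched in the RefSeq promoter windows (GRCm38.p6), which run from 250 bases before to 50 bases after the start. They are shown because PU.1 (Spi1), an ETS factor, and IRF8, its partner at composite sites, are known regulators of the phagocyte oxidase genes, and Cybb was the only one of the 6 genes with a called difference, between array numbers, as described further on. All are written 5′ to 3′ on the gene's own strand, which is the minus strand of chrX:9469275-9469574 for Cybb, chr8:122432891-122433190 for Cyba and chr5:134229576-134229875 for Ncf1. Capitals mark letters that match a searched motif.
Cybb: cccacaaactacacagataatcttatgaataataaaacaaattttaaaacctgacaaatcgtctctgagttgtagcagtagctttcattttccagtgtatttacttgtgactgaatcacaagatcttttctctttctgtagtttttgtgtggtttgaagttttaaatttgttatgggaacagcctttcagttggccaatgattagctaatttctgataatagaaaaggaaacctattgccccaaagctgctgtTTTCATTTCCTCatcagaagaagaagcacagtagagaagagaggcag
Cyba: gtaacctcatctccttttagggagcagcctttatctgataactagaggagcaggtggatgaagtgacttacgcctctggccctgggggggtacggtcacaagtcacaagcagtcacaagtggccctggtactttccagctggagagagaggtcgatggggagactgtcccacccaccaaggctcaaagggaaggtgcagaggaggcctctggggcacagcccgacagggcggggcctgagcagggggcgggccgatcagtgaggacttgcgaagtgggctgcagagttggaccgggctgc
Ncf1: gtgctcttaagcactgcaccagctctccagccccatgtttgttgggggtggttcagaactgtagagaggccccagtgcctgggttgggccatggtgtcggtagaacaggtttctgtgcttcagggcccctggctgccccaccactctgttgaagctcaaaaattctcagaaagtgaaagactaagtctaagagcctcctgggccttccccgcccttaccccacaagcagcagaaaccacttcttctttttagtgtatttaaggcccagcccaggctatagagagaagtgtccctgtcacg
The PU.1 core GAGGAA and the ETS-IRF composite (GGAA, any pair of bases, then GAAA) were searched on both strands. Only the Cybb window held a match, and it held both. Read on the opposite strand, GAGGAA lay at bases 10 to 15 after the start and the composite at bases 4 to 13, so that they overlapped. Of 32851 windows of the same length, 28.3% held GAGGAA and 2.7% held the composite. The windows also differed in base composition, with G and C making up 35.3% of the Cybb window, 54.0% of the Ncf1 window and 60.7% of the Cyba window. These matches describe letters in the windows and no binding was measured.

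The arrays were read as cDC1 by their markers. Xcr1, the cDC1 chemokine receptor, lay between 1240 and 2495 intensity units and Clec9a, the receptor for dead cells, between 1031 and 1777, where the median probe set of an array lay between 38.6 and 40.8. Other phagocytes carry this oxidase as well, and their markers were mixed. Of 12 neutrophil markers, 9 lay below those medians on every array, Ly6g between 8.73 and 13.8, and none lay above them on every array, although S100a9 reached 99.0. Of 9 macrophage and monocyte markers, 4 lay above them on every array, namely Lyz2 (354 to 811), Ccr2 (178 to 471), Cd14 (107 to 229) and Csf1r (53.4 to 81.5). Another 3 lay below them on every array, among them Mertk and Fcgr1 (16.5 to 31.3). The summed intensity of the 9 genes ran from 948 to 1146 in Het draining, 908 to 1470 in KO draining, 1142 to 1728 in Het non-draining and 1157 to 1497 in KO non-draining arrays, and their part in the subunit levels was not tested. Of 10 T cell markers, 9 lay above the medians on every array, Cd3g reaching 889, and 1 lay below them, Trat1 (12.6 to 35.9). T cell genes are treated beside Rac2 below. Also above the medians on every array were 5 of 5 plasmacytoid dendritic cell, 4 of 9 B cell and 3 of 6 cDC2 markers. The same held for 4 of 5 migratory and skin dendritic cell markers and 0 of 5 NK cell markers. Among the migratory and skin markers, Ccr7 (3354 to 5731) and Fscn1 (3065 to 6739) were brighter than Xcr1. Epcam (22.3 to 37.3) lay below the medians on every array. Wdfy4 itself was 2957 ± 433 (SD, n = 4) in Het draining, 2252 ± 411 in KO draining, 2804 ± 549 in Het non-draining and 2375 ± 557 in KO non-draining arrays. KO minus Het for Wdfy4 was -0.40 ± 0.18 (log2, SE) in draining and -0.25 ± 0.18 in non-draining cells, without passing the test (limma adjusted p = 1 in each), and whether its probes lie in the disrupted part is not given in the sources used here. KO draining array 2 stood apart, with a mean correlation of 0.976 to the other arrays. Its mean intensity was also the lowest, at 206 where the other arrays had 217 to 237. The KO minus Het differences of the subunits in the draining node are also given without this array.

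None of the 6 transcripts was called as different between KO and Het cDC1 or between draining and non-draining nodes (limma adjusted p under 0.05). KO to Het ratios lay between 0.882 for Rac1 in KO draining cells and 1.26 for Ncf4 in KO non-draining cells. In each of the 4 comparisons between groups, the arrays of the groups overlapped for every one of the 6 genes. The levels of the individual arrays are plotted by gene and group.

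**Figure D1:**
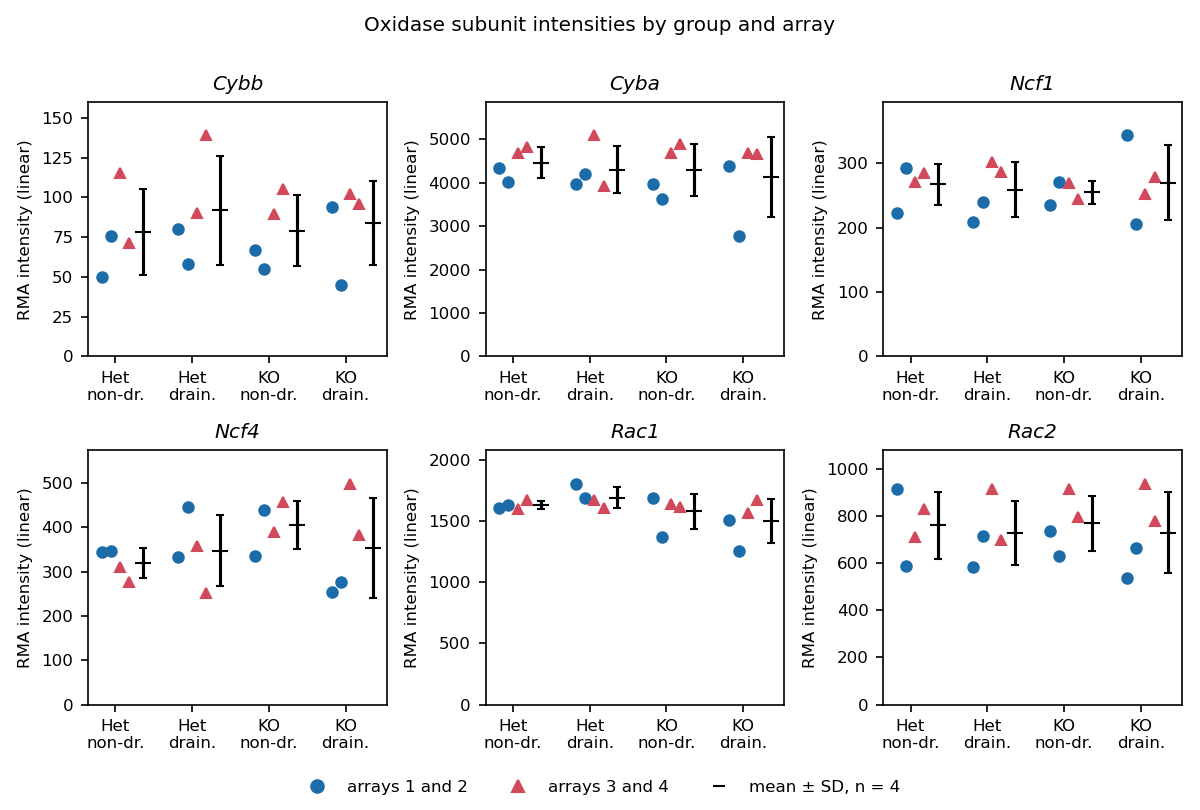
Intensity of each of the 6 transcripts (vertical axes, linear, from 0; 1 panel per gene) in the 4 groups, with blue circles for arrays 1 and 2, red triangles for arrays 3 and 4 and a black bar for the mean and SD (n = 4). The groups overlap in every panel, and KO draining array 2 is the lowest of all 16 for Cybb (44.8), Cyba (2762), Ncf1 (205) and Rac1 (1256).

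Cybb, the catalytic subunit, was the most variable of the 6 and also the dimmest. Its median over the 16 arrays was 84.9, where the median probe set of an array lay between 38.6 and 40.8. The part of this low level in its spread was not tested. Its intensities in arrays 1 to 4 were 80.4, 58.1, 90.2 and 139 in Het draining and 93.8, 44.8, 102 and 96.0 in KO draining cells. Those of the non-draining node were 50.2, 75.7, 115 and 71.2 in Het and 66.6, 54.98, 89.5 and 105 in KO cells. The highest array (Het draining 4) was 3.10 times the lowest (KO draining 2), and the 4 groups overlapped. Group means were 91.9 ± 34.2 (SD, n = 4) in Het draining, 84.2 ± 26.5 in KO draining, 78.1 ± 27.2 in Het non-draining and 79.0 ± 22.5 in KO non-draining arrays. After the group means were taken off, the SD of Cybb was 0.49 on the log2 scale, at percentile 97.97 of the 9969 genes above the median level, whose median SD was 0.23. Cybb is X-linked, and all 16 arrays had Xist between 1175 and 1609 and the Y-linked Kdm5d between 9.76 and 11.8.

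The KO minus Het difference of Cybb was -0.13 ± 0.31 (log2, SE; 95% interval -0.77 to 0.52) in the draining node, with exact permutation p = 0.771 (two-sided, as are all p-values given). The value for non-draining cells was 0.03 ± 0.31 (exact p = 0.914). Without KO draining array 2, the draining difference was 0.15, in the other direction. Neither value was called by limma (adjusted p = 1 in each).

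Cyba, the membrane partner of the catalytic subunit, was bright on every array. Its intensities in arrays 1 to 4 were 3980, 4206, 5089 and 3920 in Het draining and 4389, 2762, 4687 and 4660 in KO draining cells. Non-draining arrays had 4326, 4024, 4683 and 4823 in Het and 3965, 3621, 4688 and 4898 in KO cells. KO draining 2 was the lowest of the 16 arrays by a wide step, and the other arrays of the groups overlapped. Group means were 4299 ± 541 (SD, n = 4) in Het draining, 4124 ± 918 in KO draining, 4464 ± 360 in Het non-draining and 4293 ± 600.5 in KO non-draining arrays. The KO minus Het difference was -0.08 ± 0.15 for draining (exact permutation p = 0.857) and -0.06 ± 0.15 for non-draining cells (exact p = 0.657). The draining value became 0.10 without KO draining array 2.

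Ncf1, the organiser subunit, had intensities in arrays 1 to 4 of 208, 240, 302 and 287 in Het draining and 344, 205, 253 and 280 in KO draining cells. On the non-draining side they were 222, 292, 270 and 286 in Het and 236, 271, 270 and 244 in KO cells. Both the highest and the lowest of the 16 arrays were KO draining arrays, and the groups overlapped. The 4 group means lay between 255 ± 18.1 (SD, n = 4) in KO non-draining and 270.4 ± 57.8 in KO draining arrays, and KO minus Het was 0.05 ± 0.15 for draining and -0.06 ± 0.15 for non-draining cells, neither of them called (limma adjusted p = 1 in each). The draining value was 0.17 without KO draining array 2.

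Ncf4, the lipid-binding subunit, had the largest single genotype difference among the 6 genes. Its intensities in arrays 1 to 4 were 343, 348, 311 and 276 in Het non-draining and 335, 439, 390 and 457 in KO non-draining cells. In the draining node they were 332, 446, 359 and 252 in Het and 254, 277, 499 and 384 in KO cells. In the non-draining node 3 of the 4 KO arrays lay above every Het array, while KO array 1 lay among them. The KO mean there was 405 ± 54.9 and the Het mean 320 ± 33.4 (SD, n = 4), a difference of 0.34 ± 0.20 (log2, SE; 95% interval -0.08 to 0.75; exact permutation p = 0.0857) that did not pass the test (limma adjusted p = 1). In the draining node the difference was 0.00 ± 0.20 (exact p = 1), made of -0.54 in arrays 1 and 2 and 0.54 in arrays 3 and 4, and 0.10 without KO draining array 2. Over both nodes, KO minus Het was 0.53 within arrays 3 and 4 (limma adjusted p = 0.24) and -0.19 within arrays 1 and 2. The difference between the nodes in the genotype effect was -0.34 ± 0.28 and was not called.

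Rac1, the ubiquitous GTPase, was the steadiest of the 6, with an SD of 0.12 (log2) around the group means, at percentile 5.89 of the same 9969 genes. Its intensities in arrays 1 to 4 were 1809, 1689, 1672 and 1604 in Het draining and 1511, 1256, 1563 and 1676 in KO draining cells. Non-draining cells gave 1610, 1635, 1603 and 1674 in Het and 1692, 1373, 1643 and 1616 in KO cells. In the draining node 3 of the 4 KO arrays lay below every Het array and KO array 4 lay within them. The KO mean there was 1501 ± 178 and the Het mean 1694 ± 85.1 (SD, n = 4), a difference of -0.18 ± 0.09 (log2, SE; 95% interval -0.38 to 0.02; exact permutation p = 0.0857). It was -0.10 without KO draining array 2, -0.34 over the arrays numbered 1 or 2 and -0.02 over those numbered 3 or 4. In the non-draining node the means were 1581 ± 142 in KO and 1631 ± 32.0 in Het arrays.

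Rac2, the blood-cell GTPase, had intensities in arrays 1 to 4 of 584, 713, 914 and 699 in Het draining and 537, 664, 938 and 779 in KO draining cells. Those of the non-draining node were 913, 588, 709 and 828 in Het and 735, 632, 912 and 794 in KO cells. Every group spanned much of the whole range, from KO draining array 1 at the low end to KO draining array 3 at the high end, so that the groups overlapped. The group means were close, between 728 ± 137 (SD, n = 4) in Het draining and 768 ± 117 in KO non-draining arrays. KO minus Het was -0.01 ± 0.18 for draining (exact permutation p = 1; 0.03 without KO draining array 2) and 0.02 ± 0.18 for non-draining cells (exact p = 0.943).

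The counts for the 6 subunits were near those over all genes. In the draining node KO minus Het was above 0 for 2 of the 6 genes and for 49.1% of all genes, and the median over the 6 was -0.05 against 0.00 over all genes. None of the 6 passed an unadjusted p under 0.05, which 3.39% of all genes did, and none had groups that did not overlap, which 1.58% of all genes had. In the non-draining node 3 of the 6 genes were above 0, against 51.9% of all genes. None of the 6 passed at the unadjusted level (2.48% of all genes) and none had separate groups (2.39%). In the fit over all 19938 genes, 0% were called at a limma adjusted p under 0.05 in either node.

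No subunit was called between draining and non-draining nodes in either genotype. In Het cells the largest value among the 6 was Cybb at 0.22 ± 0.31 (draining minus non-draining, log2, SE; exact permutation p = 0.571), and 3 of the 6 genes were above 0 against 52.8% of all genes. In KO cells the largest was Ncf4 at -0.24 ± 0.20 (exact p = 0.343), which without KO draining array 2 was -0.14 while Cybb was 0.34, and 2 of the 6 genes were above 0 against 50.7% of all genes. None of the 6 passed an unadjusted p under 0.05 in Het (3.29% of all genes) or in KO cells (2.11%), none had separate groups (2.40% and 1.44%), and 0% of all genes were called by limma in either. The Het draining arrays serve in both the node and the genotype comparison, as do the others, so these values are not independent of those above.

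Averages over nodes or genotypes, which use all 16 arrays, narrowed the intervals without a call. KO minus Het over both nodes was -0.11 ± 0.07 for Rac1 (exact permutation p within nodes 0.0673) and 0.17 ± 0.14 for Ncf4 (exact p = 0.29), and between -0.07 and 0.01 for the other 4 genes. Of the 6 genes 2 were above 0, against 50.8% of all genes, and none passed an unadjusted p under 0.05, against 3.49%. Draining minus non-draining over both genotypes ranged from -0.08 for Rac2 to 0.14 for Cybb, with 2 of 6 above 0 (52.3% of all genes) and none under an unadjusted 0.05 (3.06%). The test of whether the genotype effect differed between nodes had 1 of 6 above 0 (47.7%) and none under an unadjusted 0.05 (2.32%). In each of these 3 comparisons limma called 0% of all genes.

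**Figure D2:**
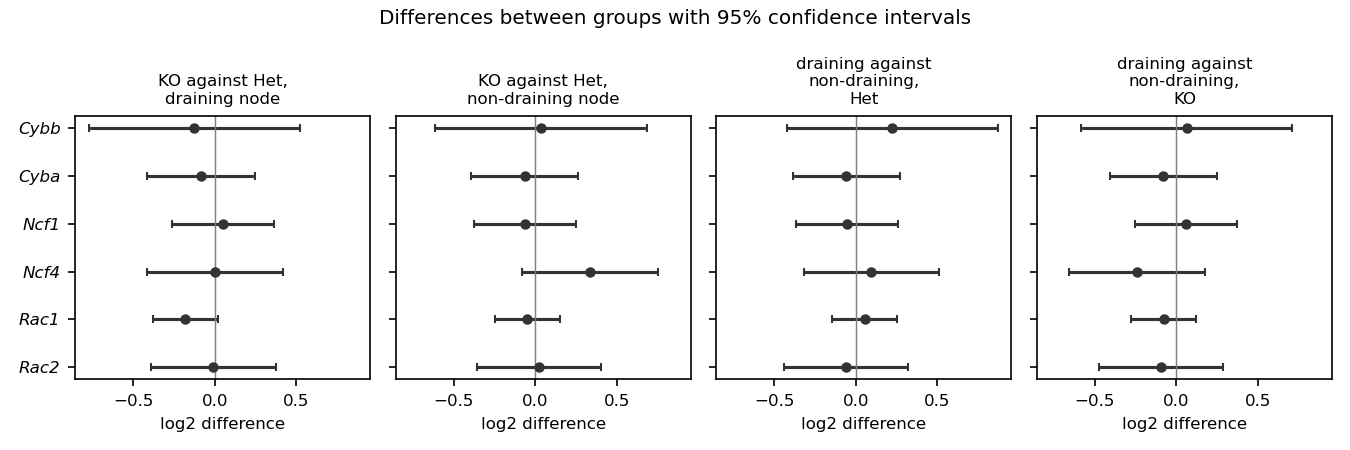
Differences of the 6 transcripts on the log2(intensity + 1) scale (horizontal axis) in the comparisons between genotypes and between nodes, each point with its 95% interval from the limma fit. Every interval spans 0; those of Cybb are the widest and those of Rac1 the narrowest, and Rac1 in the draining node (-0.18, -0.38 to 0.02) comes nearest to leaving 0 out.

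The larger variation of Cybb ran along the array number. The labels number the arrays of each group 1 to 4 and give no batch, and a difference between arrays 1 and 2 and arrays 3 and 4 was known from earlier results of these data, so that this comparison was added after the data were seen. Cybb was higher in arrays 3 and 4 than in arrays 1 and 2 in 4 of 4 groups, by the mean of each pair of arrays. Its intensity had a median of 62.3 (44.8 to 93.8) in the 8 arrays numbered 1 or 2 and of 99.0 (71.2 to 139) in the 8 numbered 3 or 4, with some overlap. With the group in the same fit, Cybb rose by 0.63 ± 0.15 (log2, SE; 95% interval 0.31 to 0.95), or 1.55-fold (limma adjusted p = 0.0152; exact permutation p within groups 0.00463, where the smallest possible is 0.00154). Without KO draining array 2 the difference was 0.54 (limma adjusted p = 0.0269).

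Such differences were common: 11.8% of all genes were called between the array numbers, 7.53% as higher in arrays 3 and 4, and Cybb was 1 of 6 subunits called. Cyba was 0.27 ± 0.09 higher (limma adjusted p = 0.0568) and Rac2 0.30 ± 0.10 (limma adjusted p = 0.0694), each in 4 of 4 groups, without passing the threshold. The 8 later-numbered arrays had a median of 4687 for Cyba (3920 to 5089) against 4002 (2762 to 4389), and of 811 for Rac2 (699 to 938) against 648 (537 to 913). Ncf1 at 0.14 ± 0.10, Ncf4 at 0.07 ± 0.14 and Rac1 at 0.06 ± 0.07 did not pass (limma adjusted p of 0.381, 0.776 and 0.544). The median over the 6 genes was 0.20 and that over all genes -0.03. Each group holds 2 arrays of either kind. Cyba passed the threshold without Het draining array 4 (limma adjusted p = 0.0241) or without KO draining array 1 (0.0199), and Rac2 without Het non-draining array 1 (0.0155).

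**Figure D3:**
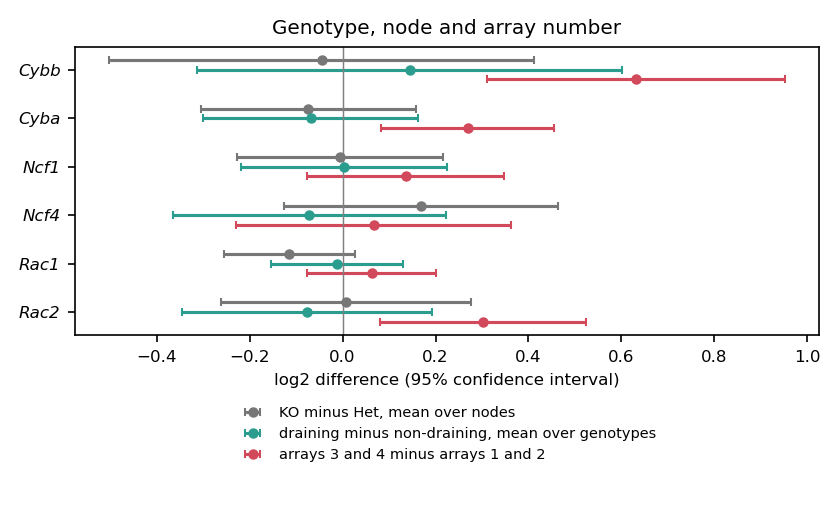
Differences of the 6 transcripts (horizontal axis, log2(intensity + 1)) with 95% intervals from limma, for KO minus Het over both nodes (grey), draining minus non-draining over both genotypes (green) and arrays 3 and 4 minus arrays 1 and 2 (red). All grey and green intervals span 0, while the red ones of Cybb (0.31 to 0.95), Cyba (0.08 to 0.46) and Rac2 (0.08 to 0.52) lie above it; of these only Cybb passed after adjustment over all genes.

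Genes around the oxidase were called in both directions between the array numbers, where 7.53% of all genes were called higher and 4.30% lower. Of 20 measured antioxidant genes, 3 rose and 1 fell, with Gpx4, the lipid-peroxide reductase, at 0.74 ± 0.09 and Sod1, the cytosolic superoxide dismutase, at 0.32 ± 0.07. Of 13 genes that signal to the oxidase, 4 fell, among them the kinases Prkcb (-0.45 ± 0.10), which phosphorylates p47phox, and Btk (-0.44 ± 0.10). Of 15 genes that switch Rac, 3 fell, Tiam1 (-0.26 ± 0.08), an exchange factor, and Arhgap25 (-0.34 ± 0.10) and Abr (-0.36 ± 0.10), which act as GTPase-activating proteins. Of 15 genes of the proton pump 3 rose, of 9 Rac-like GTPases 1 rose and 1 fell, of 7 supply genes and of 9 other NADPH oxidase genes 1 rose each, of 6 regulators 1 rose and 1 fell, and none of 4 other phagocyte oxidase genes was called. Spi1, encoding PU.1, was 0.15 ± 0.06 higher (limma adjusted p = 0.111) and Irf8 -0.14 ± 0.08 (limma adjusted p = 0.275), neither of which passed, while Irf1 rose by 0.53 ± 0.13. Of 10 measured T cell markers 6 rose, with a median over the 10 of 0.51, and of 12 cDC1 markers 2 rose and 3 fell. The part of these in the Cybb difference was not tested.

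Rac2, which lymphocytes express as well, followed the T cell markers from array to array. Over the 16 arrays, with the group means taken off, Rac2 and the mean log2 level of the 10 T cell markers had a Pearson r of 0.91 and a Spearman rho of 0.91 (permutation p = 2e-05 for each, within groups; Benjamini-Hochberg adjusted 0.00108 over the 54 relations between 6 subunits and 9 marker lists). The r was 0.90 without the 2 arrays whose Rac2 level, with the group means taken off, lay farthest from its median. It was 0.99 within the 8 arrays numbered 1 or 2 and 0.96 within the 8 numbered 3 or 4, each of which holds only a pair of arrays per group. Rac2 was the only subunit with a relation that passed. Cyba had an r of 0.65 with the T cell markers (permutation p adjusted 0.163), which was -0.01 and 0.84 within the array numbers, and with the same T cell markers Cybb had 0.27, Ncf1 -0.05, Ncf4 0.39 and Rac1 0.33. The next smallest adjusted p was that of Cybb with 5 markers of migratory and skin dendritic cells, with an r of 0.76 (permutation p adjusted 0.101) that was 0.78 and 0.19 within the array numbers, and it passed when Het non-draining array 2 was left out (permutation p adjusted 0.0432). Cyba had an r of 0.82 with those dendritic cell markers (permutation p adjusted 0.163), which was 0.99 and -0.80 within the array numbers.

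The T cell markers, apart from the dim Trat1, lay above the array medians in these sorted cells. Themis (43.4 to 62.8) and the lowest arrays of Cd28 (45.5 to 136) came near those medians. The summed intensity of the T cell markers ran from 1143 to 2223 in Het draining, 1282 to 2799 in KO draining, 1312 to 2506 in Het non-draining and 852 to 2444 in KO non-draining arrays. The defining genes Cd3e and Cd3g, which encode chains of the T cell receptor complex, lay between 94.4 and 279 and between 155 and 889, so that neither was near the level of Ly6g. In the group comparisons the median T cell marker differed by 0.28 (KO minus Het) in draining and by -0.37 in non-draining cells, where Rac2 differed by -0.01 and 0.02. In bulk RNA, more cells of a type and more RNA per cell cannot be told apart, and the part of T cell RNA in the Rac2 level was not tested.

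**Figure D4:**
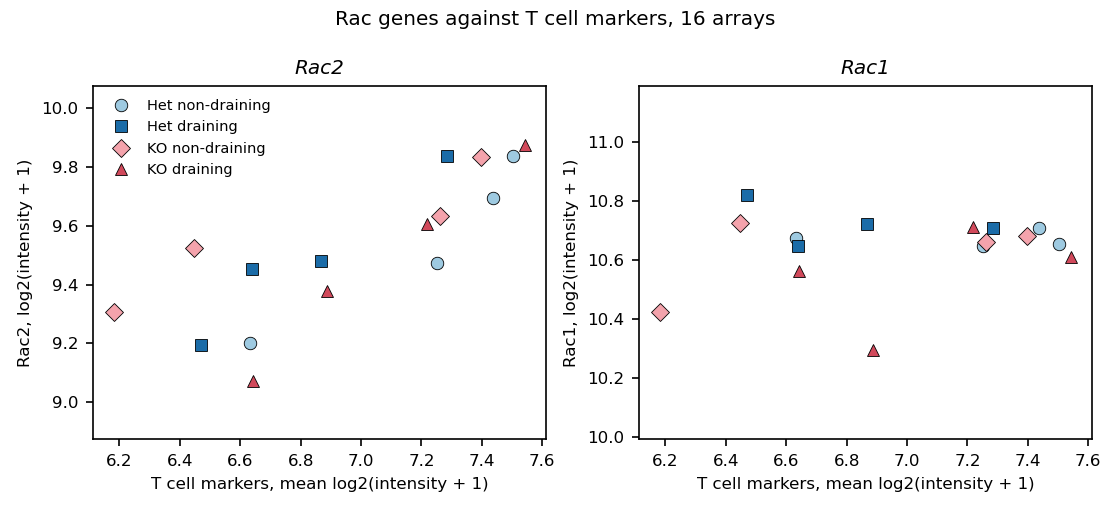
Levels of Rac2 (left) and Rac1 (right; vertical axes, log2(intensity + 1)) against the mean log2(intensity + 1) of 10 T cell markers (horizontal axes), 1 point per array, with colour and shape giving the group. Rac2 is higher where the markers are higher and Rac1 is nearly level apart from low points in KO cells; with the group means taken off, r was 0.91 for Rac2 and 0.33 for Rac1.

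The genes whose pattern was most like each subunit were taken from 9646 genes above the median level, by Pearson's r over the 16 arrays. For Rac2 these were Snrpb (0.87), a splicing factor, Lat (0.87), the T cell receptor adaptor, and Ms4a4b (0.86), a T cell membrane protein, and with the group means taken off Ms4a4b (0.93), Pex11g (0.92) and Cd2 (0.92), a T and NK cell adhesion receptor. Lat is among the T cell markers. For Cybb they were Zfand3 (0.90), Smc5 (0.88) and Cflar (0.87), and for Cyba Psmb8 (0.97), an immunoproteasome subunit, Map2k2 (0.96) and Higd2a (0.96). Those of Ncf1 were Pum2 (0.91), Casc3 (0.90) and Kdm4c (0.89), those of Ncf4 Trmt1 (0.93), Tmsb10 (0.88) and Napsa (0.87), and those of Rac1 Msl3l2 (0.95), Nsmce2 (0.86) and Ubqln2 (0.86). None of the 6 subunits was among another's nearest genes. Among the 15 pairs of subunits, no relation passed (smallest adjusted permutation p = 0.340). Cybb and Cyba, whose proteins form the membrane core, had an r of 0.63 that came to 0.70 over the arrays numbered 1 or 2 and to -0.67 over those numbered 3 or 4.

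Around the complex, 98 measured genes in 9 lists cover its maturation, its GTPase switch, its signals, its substrate supply, the removal of its products and the phagosome's proton pump. None was called in any comparison of genotype or node. In the draining node 2 of the 98 were higher and 8 lower in KO cells at an unadjusted limma p under 0.05, together 10.2% of the list beside 3.39% of all genes. Without KO draining array 2 these were 3 higher and 4 lower, or 7.14% beside 3.49%, and none was called by limma. For the non-draining node 1 was higher and 3 lower, or 4.08% beside 2.48%. The lists were chosen with earlier results known, and these shares carry no test.

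The lists nearest the enzyme were mixed. Of 4 other oxidase genes, 3 were above 0 in draining and 2 in non-draining KO cells, with Nrros, a negative regulator of NOX2 stability, at 0.28 ± 0.15 in the non-draining node and Hvcn1, the proton channel that balances the enzyme's charge, at 0.18 ± 0.14 in the draining node. Of 15 genes that switch Rac, 9 were above 0 in each node. Racgap1, a Rac GTPase-activating protein, was -0.45 ± 0.17 in the draining node, and Vav1, a Rac exchange factor of blood cells, 0.21 ± 0.10 in the non-draining node. Of 9 Rac-like GTPases, 6 and 3 were above 0, and Rhob was 0.49 ± 0.21 and 0.71 ± 0.21. Of 13 signalling genes, 9 and 10 were above 0, with Prkca, a protein kinase C, at -0.81 ± 0.18 in the non-draining node. Without KO draining array 2 the draining counts above 0 were 4 of 4, 9 of 15, 6 of 9 and 7 of 13. Each gene named here had a limma adjusted p of 1.

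In KO cells of the draining node 0 of 7 genes of NADPH supply, 6 of 20 antioxidant genes and 4 of 15 proton pump genes were above 0, beside 49.1% of all genes, and 4, 11 and 8 were so in the non-draining node (51.9% of all genes). Without KO draining array 2 the draining counts were 3, 8 and 7, beside 49.4% of all genes, and the list medians went from -0.08 to -0.00068 for supply, from -0.07 to -0.03 for antioxidant and from -0.14 to -0.01 for pump genes. Me1, malic enzyme, was -0.53 ± 0.21, Prdx1, a peroxiredoxin, -0.33 ± 0.11, Gclc, the first enzyme of glutathione synthesis, -0.40 ± 0.14, and Atp6v1a, a pump subunit, -0.31 ± 0.12 (log2 KO minus Het, SE, draining node). With KO draining array 2 left out, these were -0.67, -0.26, -0.33 and -0.24. Gclc was -0.41 ± 0.14 in the non-draining node as well. Each had a limma adjusted p of 1, and the difference between the nodes was not called for any gene. Of the 6 regulators of oxidase genes, 3 (5 without that array) and 2 were above 0. Spi1 was 0.05 ± 0.10 and 0.06 ± 0.10, and Irf8 -0.03 ± 0.12 and 0.19 ± 0.12.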

How the data were processed

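RNA of 16 samples was hybridised to Affymetrix arrays, 1 sample per array. The deposited table holds intensity on a linear scale, from 3.327 to 16300.089, for 35556 probe sets, normalized by the authors with RMA according to the submitters' processing notes (its version is not given in the sources used here). A single gene symbol was annotated for 21789 of them, more than 1 for 1621 and none for 12146. The brightest probe set per symbol was kept, giving 19938 genes, and log2(intensity + 1) was used. RMA forces 1 distribution on all arrays, which hides any change common to most genes.

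One limma fit (version 3.58.1, R 4.3.3) over the 4 groups, with 12 residual degrees of freedom, gave every comparison, with Benjamini-Hochberg adjustment over all 19938 genes and a threshold of 0.05. Exact two-sided permutations of arrays were run for the 6 subunits, and 100000 permutations within groups for correlations (Python 3.11.15, scipy 1.17.1). The fit was tested on simulated data, but the outcome is not given here and nothing is drawn from it. Array levels carry no read depth, and the number of arrays limits the precision.

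Named genes were the 6 subunits, up to 3 genes of smallest p per pathway list and comparison, and the 3 genes most correlated with each subunit. The subunits and lists were chosen with earlier results of these data known. Arrays of the same number deviated together across nodes in Het cells (correlations from 0.23 to 0.40). There, 1 against 2 and 3 against 4 gave 0.11 to 0.39 as well. These values cannot tell a pairing from the difference between arrays 1 and 2 and arrays 3 and 4, and the labels give no pairing. In the other comparisons the lowest same-number correlation lay between -0.02 and 0.003 and the highest between 0.39 and 0.58. Alternatives were the pseudocount, a filter on dim genes, the mean of probe sets, centring, an intensity trend, blocks, array subsets and each array left out.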

Additional observations from a re-analysis of the deposited data

Results flagged for a closer look

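Among the 24 sets of 4 arrays (6 subunits in 4 groups), 2 held an array that lay far from the other 3, and both were KO draining array 2. For Cybb its level of 5.52 (log2) left a gap of 0.897 of the group's whole range, and for Cyba its level of 11.43 a gap of 0.876. Both gaps are past Dixon's 95% critical value for 4 values. Chance flags about 1 in 20 groups.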

How the results depend on the processing

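Across the 7 comparisons of genotype and node, no alternative called any of the 6 subunits, and the smallest limma adjusted p was 0.24, for Ncf4 within arrays 3 and 4 (KO minus Het over both nodes, 0.53 ± 0.13, where all arrays gave 0.17). Of all genes, limma called 0 with all arrays. Within arrays 3 and 4 it called 4 in the draining node (KO minus Het), 2 in the non-draining node, 5 over both nodes, and 1 between nodes in KO cells. With the array number as a replicate block it called 1 gene for KO minus Het over both nodes. The block changed no other call. Between nodes in Het cells it called 0 genes. The sign of many subunit differences, none of them called, changed: 80 of 480 values with 1 array left out, 22 of 84 within the array numbers and 0 of 402 under the other alternatives had the opposite sign. The cause was not tested.

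With 1 array left out at a time, these were the ranges of the log2 differences that changed sign. KO minus Het in the draining node gave Cybb between -0.32 and 0.15, Cyba between -0.16 and 0.098, Ncf1 between -0.073 and 0.17, Ncf4 between -0.18 and 0.14 and Rac2 between -0.14 and 0.13. KO minus Het in the non-draining node gave Cybb between -0.15 and 0.24, Cyba between -0.13 and 0.015, Rac1 between -0.083 and 0.017 and Rac2 between -0.093 and 0.12. Draining minus non-draining in Het cells gave Ncf1 between -0.14 and 0.046, Ncf4 between -0.034 and 0.24 and Rac2 between -0.18 and 0.038. Draining minus non-draining in KO cells gave Cybb between -0.093 and 0.34, Cyba between -0.16 and 0.10, Ncf1 between -0.063 and 0.18, Rac1 between -0.14 and 0.0052 and Rac2 between -0.22 and 0.045. The difference between nodes in the genotype effect gave Cybb between -0.37 and 0.12, Cyba between -0.099 and 0.16, Ncf1 between -0.0096 and 0.24 and Rac2 between -0.16 and 0.11. KO minus Het over both nodes gave Cybb between -0.14 and 0.092, Cyba between -0.11 and 0.017, Ncf1 between -0.068 and 0.056 and Rac2 between -0.058 and 0.076. Draining minus non-draining over both genotypes gave Cyba between -0.11 and 0.022, Ncf1 between -0.058 and 0.065, Ncf4 between -0.16 and 0.000347 and Rac1 between -0.045 and 0.029.

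Opposite signs also arose when only arrays 1 and 2 or only arrays 3 and 4 were used. KO minus Het in the draining node gave Ncf4 at -0.54 within arrays 1 and 2 and Cyba at 0.065, Ncf1 at -0.15 and Rac2 at 0.096 within arrays 3 and 4. KO minus Het in the non-draining node gave Cybb at -0.026 and Rac2 at -0.10 within arrays 1 and 2 and Cyba at 0.012 within arrays 3 and 4. Draining minus non-draining in Het cells gave Ncf1 at 0.082, Rac1 at -0.000356 and Rac2 at 0.061 within arrays 3 and 4. Draining minus non-draining in KO cells gave Ncf4 at 0.052 and Rac2 at 0.0062 within arrays 3 and 4. The difference between nodes in the genotype effect gave Cyba at 0.053, Ncf1 at -0.031 and Ncf4 at 0.016 within arrays 3 and 4. KO minus Het over both nodes gave Ncf1 at 0.12, Ncf4 at -0.19 and Rac2 at -0.11 within arrays 1 and 2 and Cyba at 0.039 within arrays 3 and 4. Draining minus non-draining over both genotypes gave Ncf1 at -0.059 within arrays 1 and 2 and Ncf4 at 0.044 and Rac2 at 0.034 within arrays 3 and 4.

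Between arrays 3 and 4 and arrays 1 and 2, Cybb was called in every alternative run. Cyba was called as well when only genes above the median level were tested and with an intensity trend, giving 2 of the 6. With 1 array left out the number of subunits called lay between 1 and 2, the number of genes called between 1460 and 3398, and the Ncf4 difference between -0.027 and 0.15. The counts fell furthest without Het draining array 3 (1508 genes), KO draining array 4 (1460), KO non-draining array 2 (1540) and KO non-draining array 4 (1477). The r of Rac2 with the T cell markers stayed between 0.89 and 0.94 with 1 array left out. Within the array numbers no relation could pass. Each group then holds 2 arrays, and permutation within groups leaves too few orderings to reach the threshold.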
